A study of Homo sapiens with 9 samples.

Results

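RNA from HCT116 cells transfected with a small interfering RNA (siRNA) called siRNA A, directed against the long non-coding RNA SNHG5, was compared by RNA sequencing with RNA from cells given a control siRNA. HCT116 is an established human colorectal cancer line. The comparison takes in 6 of the 9 libraries of the series, 3 per group, and the 13641 of 15354 rows of the deposited table with a value of at least 1 CPM (the read count of a row scaled to a common library total) in at least 3 of these 6 libraries. All cells were reverse transfected with a lipid reagent, the siRNA being at 25 nM according to the labels, whereas the study's general methods for siRNA give a higher concentration. The labels give no genetic change for either group beyond the line itself, and the study's methods call the 3 cultures of each group biological replicates and the control a commercial negative control siRNA. The remaining 3 libraries, from cells given a different siRNA against SNHG5 (siRNA B), share these controls and are used only to show where siRNA A differed from it. No untransfected cells and no further control siRNA were analysed here, and which of the study's siRNA sequences is A is not given in the sources used here, so no siRNA sequence is shown.

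An siRNA is loaded onto an Argonaute protein and guides it to complementary RNA, which is cut. SNHG5 is a spliced non-coding transcript that carries small nucleolar RNAs (snoRNAs), which guide chemical modification of ribosomal RNA, in its introns. Some host genes of this kind begin with a run of pyrimidines (C and T) at the transcription start. Such a run is common in the genes of ribosomal proteins and occurs in some translation factor genes. Translation of mRNAs that begin with it is governed through that run by growth signalling. Transfected double-stranded RNA can also be sensed by the innate immune system, which acts through NF-kB and interferon regulatory factors.

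The 3 control libraries held 19313669 to 22050313 reads and the 3 siRNA A libraries 15566530 to 21037013. Reads were more concentrated on abundant genes in the siRNA A libraries, in which the 100 most abundant rows took 33.1 to 36.2% of the reads against 26.1 to 30.0% in the controls, and fewer rows reached 1 CPM (12948 to 13064 against 13562 to 13690). Values below are therefore CPM rescaled by the trimmed mean of M-values (TMM), whose factors were 1.11 to 1.19 for the controls and 0.851 to 0.916 for siRNA A. With this scaling the log2 fold changes of siRNA A against control had a median of -0.02 over all tested genes, and with library totals alone a median of -0.35. siRNA A replicate 2, the library with the fewest reads, stood apart from the other two: it was the highest of the 3 in 5201 of all 13641 genes but in 1739 of the 3302 genes that rose. Of 10 tested markers of colorectal epithelium 5 rose and 2 fell, while of the fibroblast and leukocyte markers only COL1A1 and CD68 passed the filter and no endothelial marker was in the table.

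The targeted transcript went against the label. In control replicates 1 to 3 the level of SNHG5 was 31.3, 22 and 25.9 CPM, and under the label siRNA A it was 71.4, 58.7 and 67.2 CPM. Every siRNA A library lay above every control library, and the log2 fold change was 1.29 ± 0.13, adjusted p = 1.90e-05 (limma, Benjamini-Hochberg). The row is a count per gene, so reads of its different isoforms are summed. Whether reads from its introns were counted is not given in the sources used here. All that follows describes the libraries labelled siRNA A, in which SNHG5 was not lower than in the controls, and each triplet of values gives replicates 1, 2 and 3 in that order.

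Of the 13641 genes, 7121 (52.2%) differed between siRNA A and control at an adjusted p under 0.05, 3302 of them higher (24.2%) and 3819 lower (28%). The libraries of the groups did not overlap for 8188 genes (60%), and 190 genes (1.39%) changed more than 3-fold, 61 upwards and 129 downwards. Genes that rose were 46.4% of those called with TMM scaling and 16.1% with library totals (1248 of 7728), so the counts of rises and falls given for each group of genes below are followed by the counts with library totals where these differ by more than 1.5 times. The direction of change followed expression level: in the most abundant quintile of genes 1429 rose and 300 fell, with a median log2 fold change of 0.34, whereas in the lowest quintile 291 rose and 866 fell, with a median of -0.20. It also followed base composition, the median going from 0.16 in the quintile with the lowest GC content of the transcript to -0.25 in the quintile with the highest. Through the siRNA A libraries alone 49 genes passed the filter and through the controls alone 378, the latter including 1 gene each of the EGF ligand, apoptosis, proteasome and autophagy lists and 4 chromosome 19 zinc finger genes. Of the tested genes 9980 overlap another annotated gene, and since the use of strand in counting is not given in the sources used here, reads of overlapping genes may be mixed. A gene group made of abundant or GC-poor members shares these tendencies. Correction for GC content moved 16 of 188 counts of rises or falls in the gene groups by more than 1.5 times, and the part of the expression level was not tested.

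**Figure D1:**
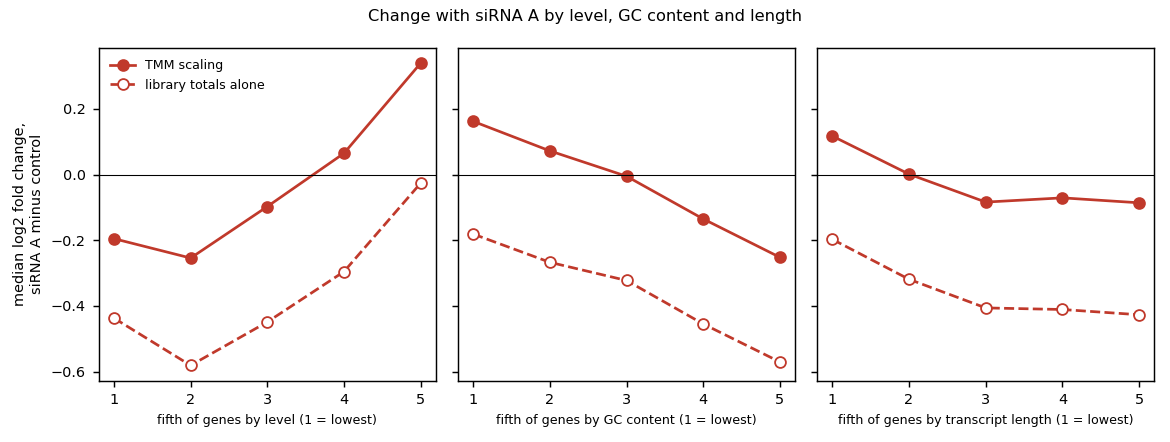
Median log2 fold change of siRNA A against control (vertical axis) in quintiles of the tested genes ordered by mean expression, by GC content and by length of the transcript (horizontal axes), with TMM scaling and with library totals alone. With TMM scaling the median rises from -0.20 in the lowest to 0.34 in the highest quintile of expression and falls from 0.16 to -0.25 with GC content, and library totals shift all points downwards.

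Ribosomal protein transcripts were higher with siRNA A almost throughout. Of 84 cytosolic ribosomal protein genes 82 rose and none fell, in the large subunit 50 of 51 and in the small subunit 32 of 33, with a median log2 fold change of 0.96 against -0.02 over all genes. With library totals 69 rose and 1 fell, with a median of 0.59, and the median was 0.97 after correction for GC content. RPL39, RPL41 and RPS27 were among those with the steepest rise, and RPLP0 and RPS25 were the members that did not pass the test. The sequences at the transcription starts of these 5 genes, of the elongation factor gene EEF1A1 and of SNHG5 itself are shown. A pyrimidine run at the start is common among ribosomal protein genes. They are RefSeq sequences on build GRCh38.p14, from 15 bases before the start to 20 bases from it, on the strand of the gene, with the run of C and T nearest the start in capitals. They lie at chrX:119791611-119791645 (minus strand), chr12:56116618-56116652 (plus strand), chr1:153990747-153990781 (plus strand), chr12:120201092-120201126 (minus strand), chr11:119018324-119018358 (minus strand), chr6:73521013-73521047 (minus strand) and chr6:85678714-85678748 (minus strand).
RPL39: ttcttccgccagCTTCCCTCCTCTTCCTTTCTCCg
RPL41: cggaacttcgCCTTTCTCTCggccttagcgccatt
RPS27: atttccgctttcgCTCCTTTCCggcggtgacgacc
RPLP0: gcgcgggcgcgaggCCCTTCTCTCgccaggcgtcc
RPS25: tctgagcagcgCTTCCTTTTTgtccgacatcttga
EEF1A1: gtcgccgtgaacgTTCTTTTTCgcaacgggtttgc
SNHG5: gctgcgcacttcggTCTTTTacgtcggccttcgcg

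A run of at least 8 pyrimidines reaching within 5 bases of the start was present in 49 of the 69 ribosomal protein promoters in the RefSeq table (71.0%), against 11.3% of all 10091 promoters of tested genes. Within the family the run did not separate the members that rose, since 47 of the 49 genes with it and all 20 without it were called higher, with medians of 0.98 and 0.94. RPLP0 and RPS25, the exceptions, both carry it. Such a run was found in 13 of 44 promoters of translation factors (29.5%) and in 5 of 20 promoters of snoRNA hosts (25%). The run of SNHG5 is 6 bases long and falls short of this limit. Outside the ribosomal proteins, the 604 genes with a run of 10 or more bases had a median of -0.01, the 489 genes with a run of 8 to 9 bases 0.08 and the 3191 genes with a run of at most 2 bases -0.05. Of these classes 26.0%, 29.7% and 23.1% of the genes rose.

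RPL39, which encodes a small protein of the large subunit, stood at 5.5, 4.95 and 4.88 CPM in the controls and 20.5, 34.7 and 21.1 CPM with siRNA A. The groups lay far apart and siRNA A replicate 2 was the highest, giving a log2 fold change of 2.08 ± 0.18, adjusted p = 6.47e-06. RPL41 stood at 24.6, 19.999 and 27.4 CPM against 85.2, 156 and 70.4 CPM, and RPS27, of the small subunit, at 6.5, 5.12 and 5.28 CPM against 21, 32.6 and 17.7 CPM, again without overlap (1.996 ± 0.24 and 1.86 ± 0.20). RPL3, a larger and far more abundant member, rose less, from 506, 398 and 443 CPM to 792, 856 and 652 CPM (0.77 ± 0.14, adjusted p = 9.54e-04). RPLP0 changed by 0.18 ± 0.11 and RPS25 by -0.04 ± 0.13. siRNA A replicate 2 was the highest of the 3 libraries for 64 of the 84 genes, and without it 81 rose, with a median of 0.88. Ribosomal protein genes have many near-identical processed copies in the genome, so the split of reads among them is uncertain.

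Translation factors rose as well, 35 of 53 being higher and 8 lower with a median of 0.55 (with library totals 16 and 10, median 0.19). EEF1A1, which delivers aminoacyl-tRNA to the ribosome, stood at 276, 246 and 276 CPM in the controls and at 682, 1193 and 675 CPM with siRNA A. The RNA helicase gene EIF4A2 stood at 204, 226 and 227 CPM and 507, 1036 and 558 CPM. Neither overlapped between the groups, and siRNA A replicate 2 was the highest library for both (1.62 ± 0.18 and 1.60 ± 0.26). EIF4E, which binds the mRNA cap, rose by 0.72. The scaffold of initiation factor 3 went the other way: EIF3B fell from 511, 488 and 506 CPM to 166, 209 and 172 CPM (-1.46 ± 0.11, adjusted p = 2.67e-06), and with siRNA B it was at 90.2, 95 and 84.8 CPM.

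The hosts of snoRNAs, which include SNHG5, moved with the ribosomal proteins. Of 23 such genes 16 rose and none fell, with a median of 0.93 (0.57 with library totals, when 13 rose and 1 fell). SNHG1 stood at 239, 224 and 236 CPM in the controls and 600.1, 677 and 557 CPM with siRNA A, with no overlap (1.38 ± 0.10, adjusted p = 2.97e-06). SNHG3 rose by 1.43 and SNHG15 by 1.34. snoRNA rows rose too. All 48 in the table had a read in the 6 libraries, and without a filter on low values 36 were called higher and none lower, with a median of 1.10. Their summed level was 38.1 to 56.4 CPM in the controls and 114 to 164 CPM with siRNA A, against 57.5 to 76.6 CPM with siRNA B. SNORA45, in an intron of the ribosomal protein gene RPL27A, stood at 0.359, 0.347 and 0.61 CPM in the controls and 5.36, 11.8 and 5.19 CPM with siRNA A, and SNORA75, in an intron of the nucleolin gene NCL, at 0.399, 0.564 and 0.61 CPM and 3.4, 14.6 and 3.48 CPM; these snoRNAs were chosen after their values were seen. NCL itself fell, from 1883, 1393 and 1765 CPM to 866, 884 and 852 CPM, with no overlap (-0.94 ± 0.14, adjusted p = 1.95e-04). Libraries made from RNA purified with oligo-dT catch snoRNAs and intron remnants poorly, and reads of a snoRNA and of the intron around it cannot be told apart.

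**Figure D2:**
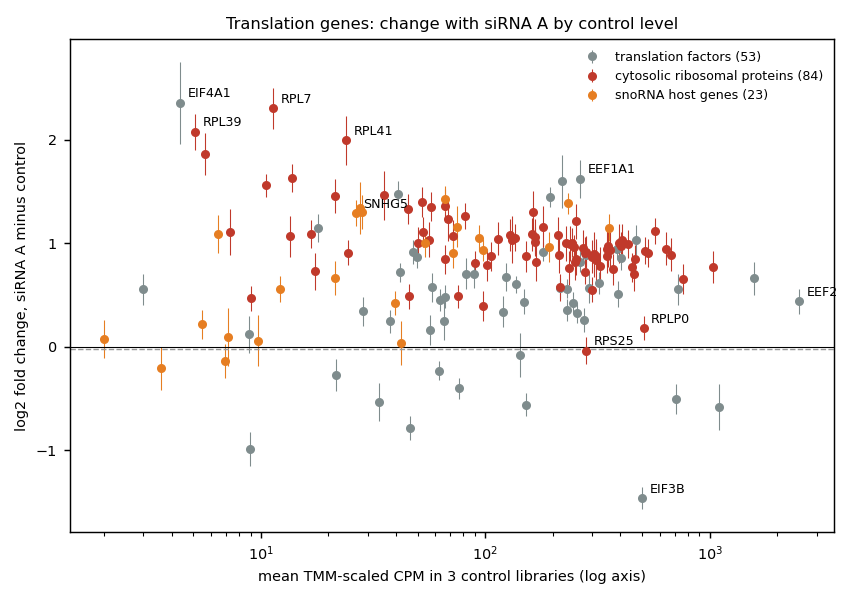
Log2 fold change of siRNA A against control with its standard error (vertical axis) against the mean level in control libraries in TMM-scaled CPM (horizontal log axis) for 84 ribosomal protein genes, 53 translation factors and 23 snoRNA hosts. Ribosomal proteins sit between -0.04 and 2.31 with a median of 0.96, and translation factors spread on both sides of 0.

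Genes for building ribosomes were divided. Of 59 ribosome biogenesis genes 36 rose and 7 fell, with a median of 0.37, but with library totals the counts were 10 and 13 and the median 0. NPM1, an abundant nucleolar chaperone, stood at 393, 336 and 308 CPM in the controls and 715, 758 and 694 CPM with siRNA A. NOC2L, which takes part in large subunit assembly, stood at 242, 224 and 261 CPM and 93, 97.4 and 85.9 CPM. The libraries did not overlap for either gene, and their log2 fold changes were 1.07 ± 0.15 and -1.38 ± 0.09. BOP1, of the PeBoW complex of large subunit processing, fell (-1.58 ± 0.17), as did UBTF, an activator of ribosomal DNA transcription (-0.87 ± 0.10). Splicing factors rose in 24 of 44 cases (54.5%) and fell in 4 (13 and 7 with library totals, where the median of 0.37 became 0). They are abundant, with a median level of 274 CPM in the controls, and the most abundant quintile of all genes began at 73.7 CPM. In that quintile 1429 of 2728 genes rose (52.4%) and 300 fell, with a median of 0.34. As a list the splicing factors therefore moved much as abundant genes in general did. The ribosome biogenesis genes, with a median control level of 115 CPM, rose in 61.0% of cases, against 52.4% in that quintile. SRSF1, a serine and arginine rich splicing regulator, rose from 422, 394 and 478 CPM to 802, 889 and 856 CPM, whereas HNRNPUL2 fell from 42.3, 40.5 and 39.2 CPM to 8.81, 11.5 and 10.8 CPM.

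NF-kB target genes rose in most cases. Of 23 tested members 17 rose and 1 fell, with a median of 0.68; 1 of the 23 passed the filter only through siRNA A. With library totals 10 rose and 3 fell, with a median of 0.36, and without siRNA A replicate 2 the counts were 16 and 1. NF-kB is a family of transcription factors held in the cytoplasm by inhibitors such as the product of NFKBIA, and binds the kappa B element. That element, searched on both strands in its common 10-base consensus, was found in 10 of 20 promoters of these genes (50.0%) and in 13.0% of all promoters of tested genes. The 10 genes with a match had a median of 1.19, 9 of them higher and BCL3 lower, and the 10 without had a median of 0.51, with 6 higher. The chemokine gene CXCL8 is counted among the 10 without a match to the consensus, of which it had the largest rise. It has the shorter form GGAATTTCC, which was found in 43 promoters (0.426%) and was searched for after the values had been seen. The promoters of CXCL8 and of 5 genes with the consensus are shown, because they hold both the steepest rise and the fall in this group. Capitals mark the kappa B element, and in CXCL8 also the AP-1 element TGANTCA further from the start. The sequences are from RefSeq, build GRCh38.p14, on the strand of the gene: chr4:73740429-73740578 (plus), chr4:74099248-74099287 (minus), chr11:102317334-102317373 (plus), chr6:137867189-137867228 (plus), chr14:35404806-35404845 (minus) and chr19:44748695-44748732 (plus). The CXCL8 element lies 91 to 83 bases before the start.
CXCL8: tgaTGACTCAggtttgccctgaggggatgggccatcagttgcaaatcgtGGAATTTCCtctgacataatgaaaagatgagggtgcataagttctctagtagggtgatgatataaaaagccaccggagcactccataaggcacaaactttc
CXCL2: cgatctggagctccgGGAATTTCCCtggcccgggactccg
BIRC3: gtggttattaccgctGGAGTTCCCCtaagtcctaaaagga
TNFAIP3: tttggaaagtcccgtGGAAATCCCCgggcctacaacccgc
NFKBIA: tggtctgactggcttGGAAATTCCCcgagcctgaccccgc
BCL3: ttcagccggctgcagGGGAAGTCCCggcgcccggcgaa

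CXCL8 encodes the neutrophil chemokine interleukin 8. It stood at 3.27, 0.781 and 1.7 CPM in the controls and 23.4, 56.6 and 19.1 CPM with siRNA A. The groups did not overlap, replicate 2 was the highest siRNA A library, and the log2 fold change, 3.48 ± 0.38, adjusted p = 3.38e-05, was the largest of all tested genes. BIRC3, an inhibitor of apoptosis, stood at 13.1, 10.2 and 13.2 CPM and 40.5, 72.8 and 40.1 CPM, and NFKBIA at 38.4, 18.8 and 29.4 CPM and 94.1, 145 and 72.2 CPM. For both, the lowest siRNA A library exceeded the highest control (1.94 ± 0.26, adjusted p = 1.15e-04, and 1.81 ± 0.26, adjusted p = 1.85e-04). TNFAIP3, a deubiquitinase that restrains the pathway, rose by 1.87 ± 0.33 and the chemokine gene CXCL2 by 1.54 ± 0.22. BCL3, a nuclear co-regulator, stood at 14.3, 12.5 and 13 CPM and 9.72, 10.3 and 9.31 CPM, a log2 fold change of -0.41 ± 0.13 that was no longer called without control replicate 1, without siRNA A replicate 3 or after GC correction. With siRNA B, BIRC3 was at 10.2, 18.5 and 9.5 CPM, and the siRNAs differed by 1.93 (adjusted p = 2.33e-04). Of the 23 genes 14 were higher with siRNA A than with siRNA B and none lower, against 37.5% of all genes that differed between the siRNAs in either direction.

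Immediate early genes, which respond within minutes to growth and stress signals, rose in the main. Of 37 genes 21 rose and 4 fell, with a median of 0.66; with library totals 7 fell and the median was 0.30. Among the subunits of AP-1 and their partners 7 of 10 rose and none fell. ATF3, a stress-induced repressor, stood at 27.2, 13.4 and 22.3 CPM in the controls and 95.5, 203 and 91.9 CPM with siRNA A. The groups were apart and the log2 fold change was 2.53 ± 0.29, adjusted p = 4.52e-05. JUNB stood at 46.3, 49 and 52.8 CPM and 145, 266 and 114 CPM, and the growth-induced zinc finger gene EGR1 at 72.8, 84.9 and 103 CPM and 242, 355 and 239 CPM. Both rose without overlap (1.71 ± 0.24 and 1.66 ± 0.17), as did MAFF (2.29 ± 0.16) and FOS (1.26 ± 0.20). DUSP6, a phosphatase that inactivates ERK and is itself induced by it, fell from 114, 124 and 129.5 CPM to 52.3, 71.3 and 49.9 CPM (-1.09 ± 0.13, adjusted p = 5.59e-05). BTG2, an antiproliferative early gene, fell (-0.77 ± 0.12), while its change with siRNA B was 0.87. siRNA A replicate 2 was the highest library for 29 of the 37 genes, and without it 19 rose, 5 fell and the median was 0.46.

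Ligands of the EGF receptor rose in part. Of 10 tested ligands and inhibitors 5 rose and 1 fell (4 and 2 with library totals, and 2 fell with the replicate block or after GC correction). EREG, encoding epiregulin, rose by 1.47 ± 0.15, HBEGF by 1.34 ± 0.14 and the amphiregulin gene AREG by 0.98 ± 0.25, whereas the betacellulin gene BTC fell (-1.14 ± 0.16). Of the receptors, ERBB2 fell (-0.69 ± 0.09) and the change of EGFR was 0.05 ± 0.15.

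Targets of YAP and TEAD, which report on cell contact and tension, included some of the strongest responses. Of 19 targets 12 rose and 3 fell, with a median of 0.57 (0.21 with library totals). CCN1, a secreted matricellular protein, stood at 30.7, 23.9 and 39.5 CPM in the controls and 219, 453 and 202 CPM with siRNA A. The groups were far apart, with replicate 2 of siRNA A above the others (3.10 ± 0.27, adjusted p = 7.70e-06). The kinase gene NUAK2 stood at 5.86, 4.86 and 5.58 CPM and 33.5, 81.8 and 31.9 CPM, and AMOTL2, a junctional inhibitor of YAP, at 73.2, 81.9 and 85.8 CPM and 287, 366 and 315 CPM. Their log2 fold changes were 2.82 ± 0.29 and 1.99 ± 0.13. CCN2, also called CTGF, rose by 1.56 ± 0.22. The gene of the co-activator itself, YAP1, rose from 95.3, 113 and 111 CPM to 206, 273 and 245 CPM (1.17 ± 0.12, adjusted p = 2.26e-05). The regulators were split, 5 of 14 rising and 5 falling (2 rising with library totals), with falls of TEAD2 (-0.93 ± 0.12) and of the Hippo kinase gene STK4 (-0.91 ± 0.10).

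**Figure D3:**
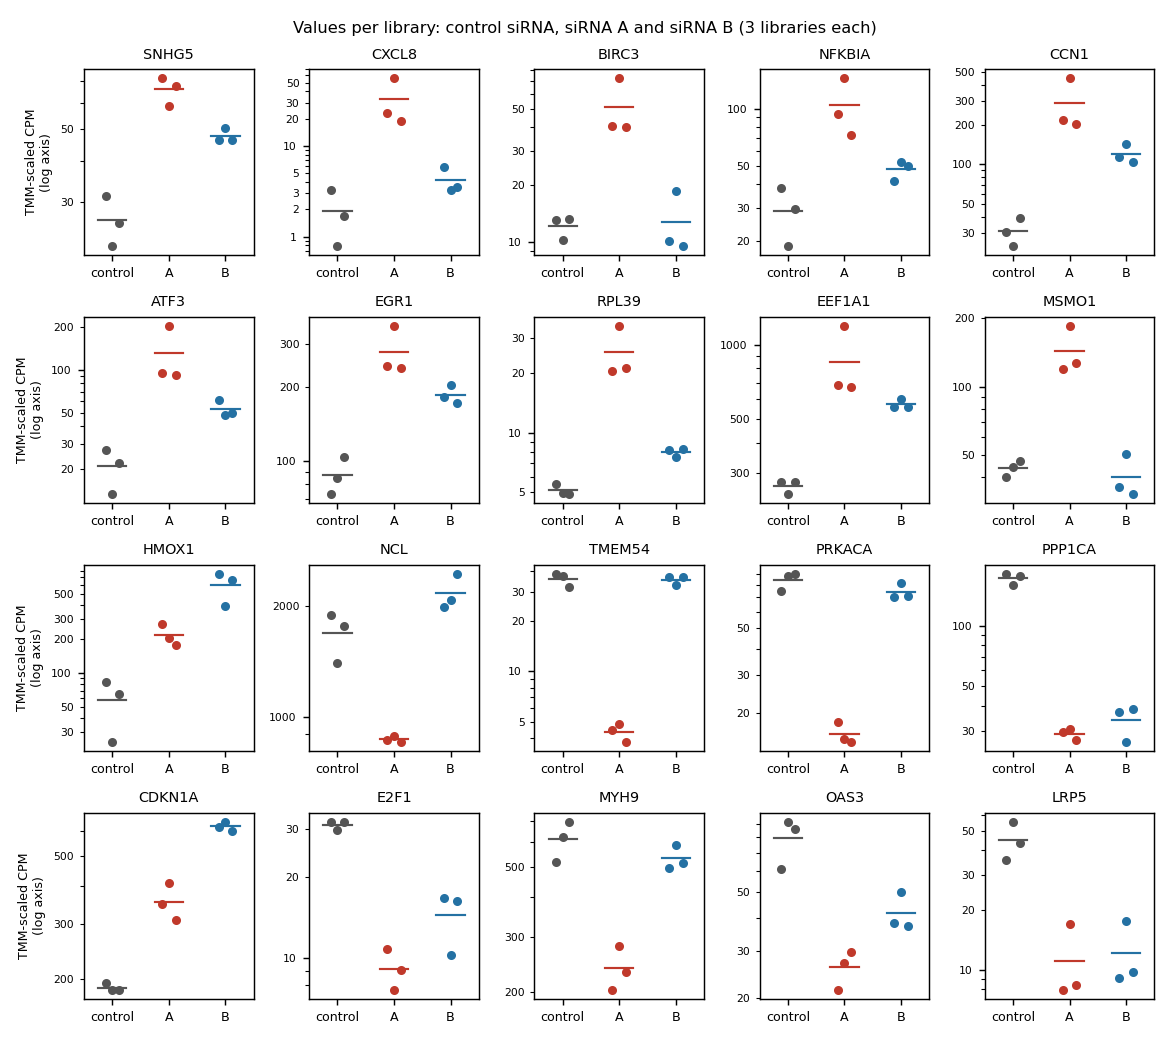
TMM-scaled CPM (vertical log axis) of 20 genes in each of the 3 control, 3 siRNA A and 3 siRNA B libraries, with points for libraries and a bar for the group mean. In genes that rose, such as CXCL8 and CCN1, replicate 2 of siRNA A often lies above the other siRNA A libraries. In PPP1CA and PRKACA, which fell, the siRNA A libraries lie close together, but in LRP5, which also fell, replicate 2 is again the highest.

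Genes of the integrated stress response rose in part. This response is carried by the transcription factor ATF4, which is made when amino acids are short or translation is disturbed. Of 12 transcription factors and feedback regulators in the list 9 rose and none fell (median 1.04, or 0.68 with library totals), while of 17 amino acid synthesis and transport genes 7 rose and 1 fell (median 0.14, and 4 and 5 with library totals). The CCAAT enhancer binding protein and ATF response element (CARE), searched as TGATGNAA on both strands, was found in 4 of 24 promoters of these genes (16.7%), in 6 of 16 promoters of cytosolic tRNA synthetases (37.5%) and in 1.66% of all. All 4 genes with it in the ATF4 list were higher, and of the 20 without it 10 were higher and 1 lower. Of the cytosolic synthetases 3 of 6 with the element were higher and 1 lower, with a median of 0.29. Without the element 5 of 10 were higher and 1 lower, with a median of 0.22. The element is shown in capitals, in CHAC1 and AARS1 as it reads from the opposite strand, in ATF3, CHAC1 and ASNS, which rose, and in the alanyl-tRNA synthetase gene AARS1, which fell, from RefSeq on build GRCh38.p14 and the strand of the gene: chr1:212565201-212565238 (plus), chr15:40953247-40953284 (plus), chr7:97872454-97872491 (minus) and chr16:70289671-70289708 (minus).
ATF3: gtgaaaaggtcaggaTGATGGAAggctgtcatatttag
CHAC1: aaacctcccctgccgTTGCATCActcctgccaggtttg
ASNS: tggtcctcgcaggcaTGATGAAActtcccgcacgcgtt
AARS1: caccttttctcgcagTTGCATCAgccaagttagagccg

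CHAC1, which degrades glutathione, stood at 5.38, 1.87 and 3.58 CPM in the controls and 14.7, 11.9 and 10.5 CPM with siRNA A. The asparagine synthetase gene ASNS stood at 64.2, 43.3 and 59.5 CPM and 128, 101 and 122.9 CPM. Neither overlapped (1.60 ± 0.27 and 1.07 ± 0.20). SLC7A11, the cystine transporter, rose from 27.9, 17.3 and 25.9 CPM to 83.4, 68.5 and 90.7 CPM (1.75 ± 0.21, adjusted p = 6.48e-05), and CEBPB by 1.47 ± 0.17. ATF4 itself rose by 0.62 ± 0.15, and by 0.26 with library totals, when it was not called. The tRNA synthetases that charge tRNAs in the cytosol rose in 11 of 20 cases (55%) and fell in 2, with a median of 0.31. Their median control level was 172 CPM, and in the most abundant quintile of all genes 52.4% rose, with a median of 0.34. The synthetases of mitochondria rose in 1 of 17 cases and fell in 6, with a median of -0.18. With library totals the cytosolic counts were 5 and 5, the median -0.05 being on the other side of 0, and 12 mitochondrial enzymes fell and none rose. With the replicate block or GC correction 2 of them rose. YARS1 rose by 0.85 ± 0.09 and GARS1 by 0.81 ± 0.11. AARS1, for alanine, fell from 169.6, 158 and 178 CPM to 110.1, 125 and 116 CPM (-0.52 ± 0.10, adjusted p = 9.31e-04) and was at 243, 268 and 234 CPM with siRNA B.

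Chaperones of the endoplasmic reticulum (ER) did not move as a block. Of 33 genes 14 rose and 7 fell, with a median of 0.27, and with library totals 6 rose, 11 fell and the median was -0.10. The ER stress element, the site through which the unfolded protein response induces chaperones, was found on either strand in 7 of 31 of their promoters (22.6%) and in 13 of all promoters of tested genes (0.129%). Of these 7 genes HSPA5, HSP90B1 and CANX rose, CALR and CRELD2 fell, and ERO1B and XBP1 were not called. XBP1, with a log2 fold change of 0.36, was called with the replicate block (adjusted p = 0.022). The element is in capitals in the promoters of HSPA5 and HSP90B1, which rose, and of CALR and CRELD2, which fell, read from the opposite strand in all but HSPA5, from RefSeq on build GRCh38.p14 and the strand of the gene: chr9:125241381-125241419 (minus), chr12:103930311-103930349 (plus), chr19:12938374-12938412 (plus) and chr22:49918544-49918582 (plus).
HSPA5: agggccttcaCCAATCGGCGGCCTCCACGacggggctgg
HSP90B1: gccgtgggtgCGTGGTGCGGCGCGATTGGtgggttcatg
CALR: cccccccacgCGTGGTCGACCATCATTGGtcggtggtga
CRELD2: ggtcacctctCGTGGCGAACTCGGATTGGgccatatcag

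HSPA5, the main ER chaperone BiP, stood at 955, 675 and 895 CPM in the controls and 1712, 1355 and 1447 CPM with siRNA A. CRELD2, a secreted ER stress protein, stood at 33.3, 26.8 and 34.4 CPM and 9.34, 7.62 and 5.94 CPM. Both were without overlap and in opposite directions (0.85 ± 0.18, adjusted p = 0.00234, and -1.92 ± 0.17, adjusted p = 6.82e-06). DNAJB9, a partner of BiP, rose by 1.21 ± 0.20, and the disulfide isomerase genes PDIA3 and PDIA4 changed by 0.73 and -0.68. In the cytosol, heat shock chaperones rose in 18 of 28 cases with none lower (median 0.46, and 1 lower with the replicate block), though with library totals 6 rose and 5 fell (median 0.09). HSP90AB1 stood at 3673, 2821 and 3039 CPM and 6299, 6062 and 5685 CPM (0.93 ± 0.17, adjusted p = 7.57e-04), while the inducible HSPA1A, which shares reads with a near-identical neighbour, changed by -0.33 ± 0.18 and was not called. Proteasome subunits rose in 26 of 44 cases (59.1%) and fell in 4 (median 0.46, with library totals 8, 13 and 0.10). Their median control level was 131 CPM, and in the most abundant quintile of all genes 52.4% rose, with a median of 0.34. As a list they therefore lay near abundant genes in general. PSMD7 rose by 0.85 ± 0.13 and PSMB5 by 0.77 ± 0.12, against falls of PSMD13 (-0.97 ± 0.12) and ADRM1 (-0.68 ± 0.13).

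Antioxidant, heme and iron genes under NRF2 rose in 19 of 31 cases and fell in 4, with a median of 0.60 (0.24 with library totals). FTL, the ferritin light chain that stores iron, stood at 1076, 859 and 906 CPM in the controls and 2978, 3254 and 2318 CPM with siRNA A, with no overlap (1.58 ± 0.16, adjusted p = 1.82e-05). NFE2L2, the gene of NRF2, rose by 0.98 ± 0.12. The heme transporter gene SLC48A1 fell (-1.37 ± 0.13), as did FECH, the last enzyme of heme synthesis (-0.69 ± 0.13). HMOX1, which breaks heme down, was higher with siRNA B than with siRNA A (log2 difference of A to B -1.44, adjusted p = 0.0109).

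Sterol synthesis was a class in which the siRNAs parted. Of 25 genes of the sterol pathway 19 rose and 2 fell with siRNA A, with a median of 0.58, and with library totals 10 rose, with a median of 0.25. The median with siRNA B was -0.12, and 18 of the genes were higher with siRNA A than with siRNA B and 1 lower. MSMO1, which demethylates lanosterol intermediates, stood at 40.3, 44.2 and 47.3 CPM in the controls, 119.8, 185 and 127 CPM with siRNA A and 36.4, 50.8 and 33.6 CPM with siRNA B. siRNA A lay above both other groups, which overlapped each other (1.67 ± 0.18 against control, 1.81 against siRNA B). HMGCS1, which makes HMG-CoA, stood at 94.4, 68.2 and 114 CPM, 223, 224 and 262 CPM and 88.5, 78.8 and 82.3 CPM in the same order, and the epoxidase gene SQLE at 64.3, 73.3 and 75.1 CPM, 162, 185 and 183 CPM and 68, 94.1 and 67.4 CPM. Both again were highest with siRNA A (1.38 ± 0.16, adjusted p = 4.14e-05, and 1.31 ± 0.13, adjusted p = 2.09e-05). TM7SF2 and PMVK were the members that fell (-0.74 ± 0.14 and -0.67 ± 0.15). Fatty acid synthesis genes rose in 7 of 14 cases and fell in 3 (2 and 5 with library totals).

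Glycolysis genes rose in 13 of 21 cases and fell in 2 (median 0.71, and 0.34 with library totals, when 5 fell). LDHA, which makes lactate, stood at 727, 677 and 766 CPM in the controls and 1375, 1528 and 1360.5 CPM with siRNA A, without overlap (0.97 ± 0.11, adjusted p = 3.70e-05). ENO1, PGAM1 and PKM rose by 0.98, 1.11 and 0.93, and the hexokinase gene HK1 fell (-0.98 ± 0.12). Of 21 hypoxia response genes 14 rose and 3 fell (median 0.58, with 8 higher with library totals), among them the vasodilator peptide gene ADM, from 28.1, 23.2 and 26 CPM to 61.8, 104 and 54.9 CPM (1.42 ± 0.20, adjusted p = 1.36e-04). EGLN1, the oxygen sensor that limits the response, fell (-1.20 ± 0.14).

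The energy-producing mitochondrial classes gave counts that rested on single libraries. In the nuclear respiratory chain 37 of 78 genes rose and 5 fell, but 21, 22, 23 and 23 rose without control replicate 2, control replicate 3, siRNA A replicate 1 and siRNA A replicate 2, and with library totals 3 rose and 15 fell. Of 75 mitochondrial ribosomal proteins 31 rose and 6 fell, with 20 rising if either control replicate 2 or siRNA A replicate 1 was left out. With library totals 5 of them rose and 20 fell, and with the replicate block 11 fell. For the mitochondrial genome 6 of 13 genes rose, 1 without control replicate 1, control replicate 2 or siRNA A replicate 2, 3 when siRNA A replicate 1 was left out, 3 after GC correction, and 1 with library totals. Single genes were clearer. NDUFAB1, an acyl carrier protein of complex I, stood at 69.9, 52.5 and 63.7 CPM in the controls and 20.5, 19.9 and 17.7 CPM with siRNA A (-1.62 ± 0.12, adjusted p = 2.91e-06), and MRPS6 fell (-1.37 ± 0.17) while MRPL50 rose (1.29 ± 0.11).

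Stress-induced genes of cell cycle arrest, death and repair went both ways. Of 34 such genes 13 rose and 10 fell (median 0.15, with library totals 8 rose and the median was -0.21). PMAIP1, the death-promoting BH3 protein NOXA, stood at 94.7, 79.6 and 97.3 CPM in the controls and 261, 306 and 241 CPM with siRNA A. The cyclin-dependent kinase inhibitor gene CDKN1A stood at 194, 184 and 184 CPM and 350.4, 408 and 309 CPM. Both rose without overlap (1.56 ± 0.15, adjusted p = 1.22e-05, and 0.91 ± 0.11, adjusted p = 5.75e-05), but CDKN1A was higher again with siRNA B, by a difference of A to B of -0.81. SESN2 and BBC3, for the stress sensor sestrin 2 and the death protein PUMA, rose by 1.13 and 0.86, and the DNA damage recognition genes XPC and DDB2 fell (-1.02 ± 0.12 and -0.76 ± 0.16). Of the 34 genes 4 were higher and 18 lower with siRNA A than with siRNA B.

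Genes of the apoptosis machinery fell more often than they rose. Of 21 death-promoting BCL2 family members and caspases 4 rose and 12 fell, with a median of -0.45 (-0.74 with library totals). BAK1, which permeabilizes the mitochondrial membrane, stood at 20.6, 17.9 and 21.5 CPM in the controls and 8.87, 6.94 and 7.7 CPM with siRNA A, and the initiator caspase gene CASP9 at 8.73, 8.03 and 8.46 CPM and 3.66, 3.77 and 2.46 CPM. Both fell without overlap (-1.25 ± 0.16 and -1.14 ± 0.15), as did BAD and BCL2L11, the latter encoding BIM (-1.21 ± 0.19 and -1.12 ± 0.23). CYCS, the cytochrome c that triggers caspase 9 once released, rose from 161, 147 and 131 CPM to 321, 333 and 313 CPM (1.14 ± 0.11, adjusted p = 1.27e-05).

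Genes of cell division fell in part. Among 35 kinetochore, motor and cytokinesis genes 2 rose and 17 fell, with a median of -0.40 (-0.76 with library totals, when 1 rose and 26 fell). Of all genes 28% were lower. Among the 21 genes of mitotic entry and the spindle checkpoint 2 rose and 6 fell (28.6% lower), with a median of -0.06, and with library totals none rose and 13 fell. siRNA A replicate 2 was the highest siRNA A library for 1 of the kinetochore, motor and cytokinesis genes, and without that library 12 of them fell, with a median of -0.23. SPC25, of the kinetochore complex that grips microtubules, stood at 35.1, 31.5 and 36.1 CPM in the controls and 17.9, 14.6 and 18.8 CPM with siRNA A (-0.97 ± 0.15, adjusted p = 3.58e-04). The separase gene ESPL1 and the kinesin gene KIF14 fell (-0.95 ± 0.15 and -0.89 ± 0.26), while the mitotic cyclin gene CCNB1 changed by 0.25 ± 0.14 and was not called. Upstream, E2F1, the transcription factor of S phase entry, fell from 31.9, 29.7 and 32 CPM to 10.8, 7.62 and 9.04 CPM (-1.67 ± 0.18, adjusted p = 2.43e-05), and CDC45, of the replicative helicase, from 41.2, 39.1 and 47 CPM to 17.5, 11.8 and 15.6 CPM (-1.46 ± 0.22, adjusted p = 2.31e-04). For both the highest siRNA A library was below the lowest control. In the DNA replication list of 53 genes 9 rose and 14 fell (26.4% lower, against 28% of all genes), counts that became 5 higher after GC correction, 5 higher without control replicate 3, 5 higher without siRNA A replicate 3, 9 lower without siRNA A replicate 2, and 1 and 35 with library totals. G1 regulators were split, with 7 of 23 higher (3 with library totals) and 9 lower: CCND1, encoding cyclin D1, rose by 0.87 ± 0.11 and the CDK4 and CDK6 inhibitor gene CDKN2C fell (-0.97 ± 0.12).

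Interferon-stimulated genes and sensors of foreign RNA fell more often than they rose. Of 28 members 3 rose and 14 fell (median -0.37, and -0.62 with library totals, when 1 rose and 18 fell), 4 of the 28 having passed the filter only through the controls. OAS3, which senses double-stranded RNA, stood at 61.1, 91.6 and 86.1 CPM in the controls and 21.3, 26.9 and 29.7 CPM with siRNA A. It fell without overlap (-1.57 ± 0.18, adjusted p = 3.60e-05). The endosomal sensor gene TLR3 and the cytosolic sensor gene RIGI fell (-0.92 ± 0.18 and -0.55 ± 0.14). Of the 7 genes listed as RNA sensors, among which OAS3 was not counted, 5 were lower and none higher. ISG15 changed by -0.16 ± 0.18 and was not called, and IRF9, a subunit of the interferon-activated transcription factor, rose by 0.75 ± 0.16. Within the RNA interference machinery 5 of 15 genes rose (2 with library totals) and 6 fell: AGO4 went from 5.78, 9.11 and 8.15 CPM to 1.91, 2.42 and 3.26 CPM (-1.30 ± 0.19, adjusted p = 2.39e-04), AGO3 rose by 0.93 ± 0.14 and AGO2, the cutting Argonaute, changed by 0.20 ± 0.14 without being called.

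RNA levels of genes of epithelial structure went both ways. Of 8 keratins 7 rose and none fell (median 0.92, 0.57 with library totals), and 6 of these 7, all but KRT80, were also higher with siRNA A than with siRNA B. KRT19 stood at 466, 436 and 465 CPM in the controls and 978, 1179 and 795 CPM with siRNA A, and KRT7 at 15.2, 15.6 and 17.2 CPM and 41.6, 33.7 and 32.7 CPM. Neither overlapped (1.09 ± 0.14 and 1.11 ± 0.13). Of 28 desmosome and tight junction genes 10 rose (5 with library totals) and 9 fell. DSC2, a desmosomal cadherin, rose from 19.9, 26.2 and 26.6 CPM to 89.9, 153 and 108 CPM (2.20 ± 0.25, adjusted p = 3.98e-05) and OCLN, the tight junction protein occludin, by 1.26 ± 0.19, while CGN, encoding cingulin, fell (-1.04 ± 0.13). Actin cytoskeleton genes rose in 24 of 41 cases (58.5%) and fell in 5 (median 0.43, and 13 and 11 with library totals, median 0.06), the falls being 3 without siRNA A replicate 2 or replicate 3. Their median control level was 181 CPM, and in the most abundant quintile of all genes 52.4% rose, with a median of 0.34. The membrane linkers EZR and RDX rose by 0.85 and 1.003. MYH9, the heavy chain of the main non-muscle myosin, fell from 518, 620.3 and 694 CPM to 203, 279.8 and 232 CPM (-1.36 ± 0.14, adjusted p = 2.44e-05). The tensins of focal adhesions TNS4 and TNS3 fell (-2.14 ± 0.23 and -1.76 ± 0.20), while the integrin genes ITGB1 and ITGA5 rose by 1.42 and 1.23. WNT and stem cell genes were split, 10 of 31 rising and 10 falling (2 and 16 with library totals). The WNT co-receptor gene LRP5 fell from 35.7, 55.4 and 43.2 CPM to 7.91, 17.1 and 8.4 CPM (-1.97 ± 0.29, adjusted p = 2.06e-04). The stem cell factor SOX9 fell too (-1.16 ± 0.33), while AXIN2, a direct target of the pathway, changed by -0.11 ± 0.23 and was not called.

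**Figure D4:**
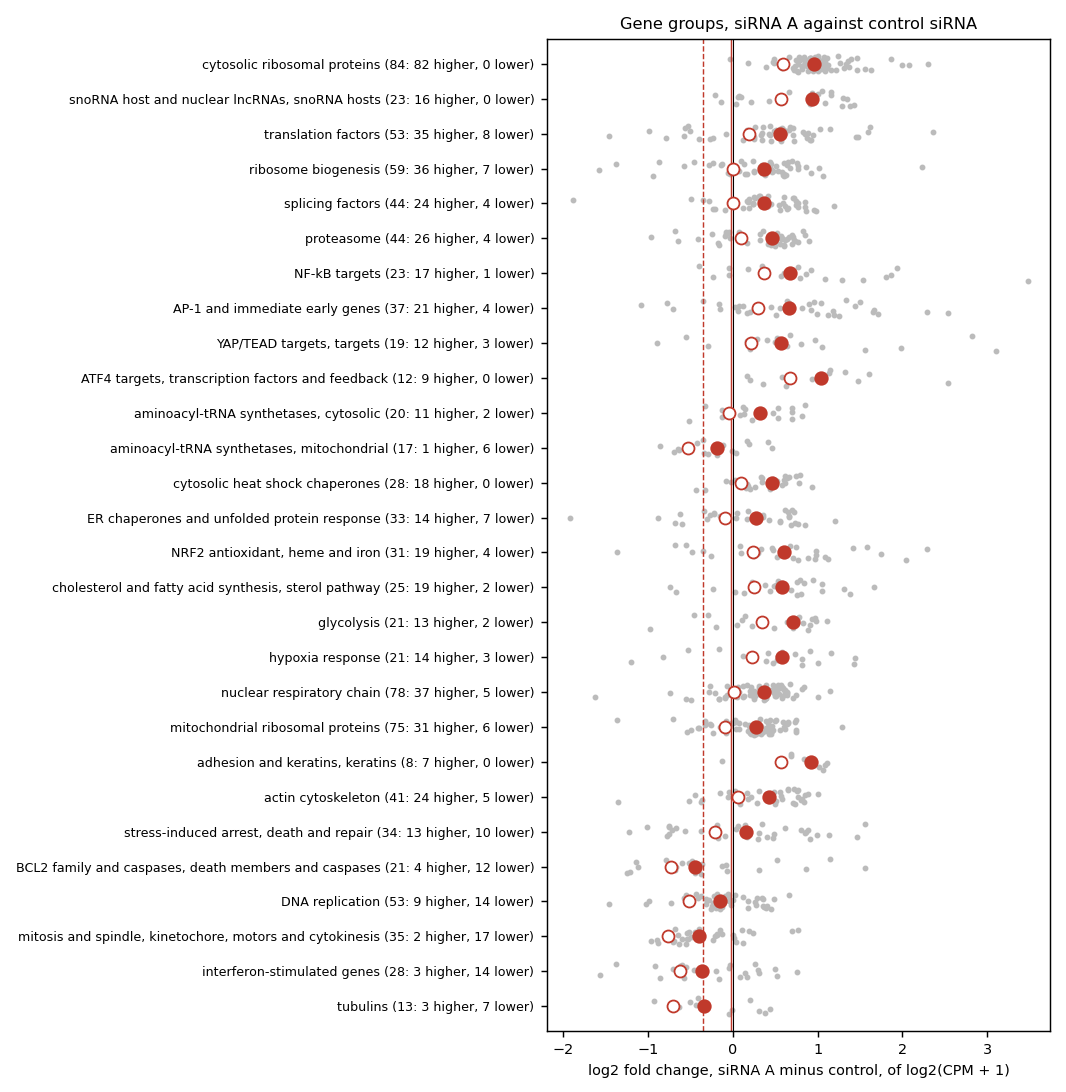
Log2 fold change of siRNA A against control (horizontal axis) for the tested members of 28 gene lists (rows). Grey dots are genes, filled symbols list medians with TMM scaling and open symbols medians with library totals, and the vertical lines mark the medians of all genes (-0.02 and -0.35). Ribosomal proteins, keratins and snoRNA hosts lie to the right under both scalings and kinetochore genes, interferon-stimulated genes and death-promoting genes to the left.

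Among the steepest falls were genes of several kinds. CTDSPL, a phosphatase of the RB pathway, stood at 57.9, 62.3 and 57.3 CPM in the controls and 7.7, 8.15 and 8.19 CPM with siRNA A. PPP1CA, the alpha catalytic subunit of protein phosphatase 1, stood at 181, 160.2 and 176 CPM and 29.6, 30.6 and 27 CPM, and SEMA6B, a transmembrane semaphorin, at 36.2, 43.2 and 40.9 CPM and 4.88, 6.42 and 5.03 CPM. In each the siRNA A libraries were close together and far below the controls (-2.74 ± 0.12, adjusted p = 2.81e-07, -2.53 ± 0.14, adjusted p = 6.00e-07, and -2.68 ± 0.13, adjusted p = 3.43e-07). PRKACA, the catalytic subunit alpha of protein kinase A, stood at 75.3, 88.9 and 90.7 CPM in the controls, 18.1, 14.9 and 14.4 CPM with siRNA A and 70.7, 81.7 and 71.1 CPM with siRNA B. It fell with siRNA A (-2.35 ± 0.12, adjusted p = 3.82e-07) and differed from siRNA B by -2.17 on the log2 scale (adjusted p = 1.69e-06). The ubiquitin-conjugating enzyme gene CDC34, the actin-binding protein gene TRIOBP and the Rab regulator gene TBC1D16 also fell (-2.05 ± 0.13, -2.12 ± 0.15 and -2.65 ± 0.26). CTDSPL, PPP1CA and SEMA6B were also lower with siRNA B than in the same control libraries (-1.84, -2.33 and -2.01).

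Between the siRNAs, 5119 of the 13641 genes differed (37.5%), 2419 being higher and 2700 lower with siRNA A. Of the 7121 genes called against control, 3609 also differed between the siRNAs, and 249 were called in opposite directions for A and B against the controls that both share. TMEM54, a membrane protein gene, had the largest difference downwards, -2.78 on the log2 scale, and CXCL8 the largest upwards, 2.58. KRTAP2-3, a keratin-associated protein gene, differed by 1.81 and ELFN2, a leucine-rich repeat membrane protein gene, by -1.90, both with little change for siRNA B against control (-0.20 and -0.06). Over lists, 35 of 84 ribosomal proteins were higher and 3 lower with siRNA A than with siRNA B. Of 28 heat shock chaperones 16 were higher and none lower, and of 35 kinetochore, motor and cytokinesis genes 16 were lower and none higher. Of all 13641 genes 2419 were higher and 2700 lower.

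**Figure D5:**
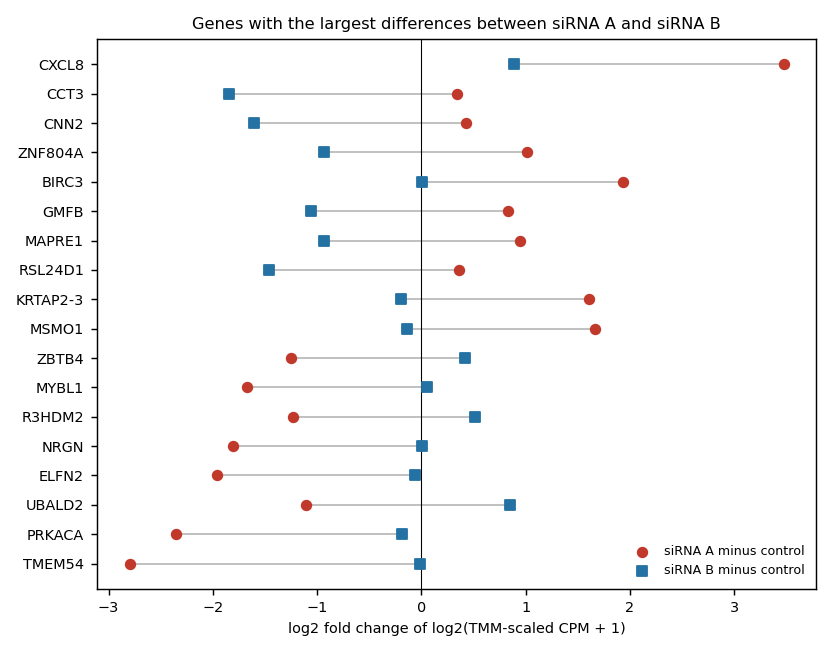
Log2 fold changes against the same 3 control libraries with siRNA A and with siRNA B (horizontal axis, circles and squares) for 18 of the genes with the largest differences between the siRNAs among genes called for siRNA A (rows). TMEM54 and PRKACA sit far below 0 with siRNA A and near 0 with siRNA B.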

How the data were processed

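Polyadenylated RNA of HCT116 cells was sequenced by the authors as single-end 50 base reads, aligned to GRCh37/hg19 with TopHat2 and counted per gene with HTSeq, according to the labels and the submitters' processing notes. The deposited table gives CPM, read counts scaled to a common library total, as the authors computed it; every value was a whole multiple of 1 read within 0.01 reads, so whole reads were recovered. 1 read was worth 0.0454 to 0.0642 CPM, and 3 reads, the floor used here, 0.129 to 0.193 CPM. Gene identifiers matched the annotation for 14871 of 15354 rows.

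CPM were rescaled by TMM (edgeR 4.0.16), and log2(CPM + 1) was fitted with limma 3.58.1 (R 4.3.3) with 1 mean per group over all 9 libraries, an intensity trend and Benjamini-Hochberg adjustment over 13641 genes. Fold changes are on that log2 scale, ± gives the standard error, and a gene was called at an adjusted p under 0.05. The pseudocount understates changes of low genes. The fit was tested on simulated counts. Alternatives were other scalings, pseudocount, no filter, the 6 libraries alone, edgeR and DESeq2 1.42.0 on recovered reads, a replicate block, correction for GC content, and leaving out each library. Same-numbered control and siRNA A libraries deviated together from their group means (r of 0.65, 0.41 and 0.14), the last little above the highest r of differently numbered libraries (0.09). The labels give replicate numbers and do not state that the cultures were paired. The main fit held no replicate term, and the replicate block, which treats same-numbered cultures as paired, was run as an alternative.

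The 52 gene lists, the genes named and the members were chosen with earlier results of these data known. Named were SNHG5, the largest changes, the up to 4 largest rises and falls in each list with its defining gene, the largest differences between the siRNAs, and the largest gains and losses of library share. Some genes beside them (CXCL2, RPLP0, RPS25, HSP90B1, CANX, CALR, ERO1B, XBP1, SNORA45, SNORA75) were chosen after their values were seen, and individual values of a few genes are not reported here. Promoter sequences are from RefSeq, 250 bases before to 50 bases from the start, and 10091 tested genes had one.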

Additional observations from a re-analysis of the deposited data

Results flagged for a closer look

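For 10 genes the effect of siRNA A and that of siRNA B, measured against the same 3 control libraries, were both called and of opposite direction, and the test of the difference between the siRNAs was called as well (limma, Benjamini-Hochberg). Of all 249 such genes these have the largest differences among the genes that were named by rule and are reported here. CCT3, a subunit of the cytosolic chaperonin, changed by 0.34 with siRNA A and -1.84 with siRNA B, a difference of 2.18. CNN2, an actin-binding calponin, changed by 0.43 and -1.61, a difference of 2.03. ZNF804A, a zinc finger gene, changed by 1.01 and -0.93, a difference of 1.95. GMFB, encoding glia maturation factor beta, changed by 0.83 and -1.06, a difference of 1.89. MAPRE1, whose product binds growing microtubule ends, changed by 0.95 and -0.94, a difference of 1.89. RSL24D1, a ribosome biogenesis factor, changed by 0.36 and -1.46, a difference of 1.82. In the opposite sense UBALD2 changed by -1.10 and 0.85, a difference of -1.95. R3HDM2 changed by -1.23 and 0.52, a difference of -1.75. ZBTB4, a zinc finger repressor gene, changed by -1.25 and 0.42, a difference of -1.68. BTG2, an antiproliferative early gene, changed by -0.77 and 0.87, a difference of -1.64. The rises of CCT3, CNN2 and RSL24D1 with siRNA A were not called with library totals.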

How the results depend on the processing

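The number of genes called for siRNA A, 7121, stayed within 1.5 times under all 16 alternatives run. It went from 6002 without control replicate 2 to 8045 with the replicate block. The block, which treated same-numbered cultures as paired, added calls and lost 5. With the block no named gene lost its call and 2 gained one, and 6152 genes differed between the siRNAs. The number with a fold change over 3 moved from 190 to 374 with library totals, 433 with a pseudocount of 0.1, 470 with edgeR and 462 with DESeq2, and lay between 165 and 222 when a library was left out. Of 387 named genes called, 311 kept call and direction under all 16 alternatives and 340 under all but library totals, 44 lost the call with library totals, 43 without some library and 18 with GC correction. Library totals put siRNA A values lower relative to the controls than TMM scaling does, and which scaling is closer to the RNA content of the cells was not tested. With library totals CCT3 (-0.0293), RSL24D1 (-0.00501), UBE2C (-0.0474), MLX (-0.0809) and TUBA1C (-0.0592) changed sign. Of 49 gene lists 19 had a median above 0 with library totals, against 40 with TMM scaling. SNHG5 rose under every alternative, by 0.93 with library totals to 1.42 without control replicate 1. At 0.129 to 0.193 CPM for 3 reads, changes in genes near 1 CPM rest on few reads.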

Other observations

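Further gene lists, described by the same counts, moved in part. Autophagy genes rose in 11 of 21 cases and fell in 4 (6 and 8 with library totals): MAP1LC3B, the gene of the autophagosome protein LC3B, rose by 1.32 ± 0.17 and the cargo receptor gene SQSTM1 by 0.92 ± 0.17, while TFEB, a transcription factor of lysosomal genes, fell (-1.22 ± 0.16). Genes of methionine salvage and polyamine synthesis were divided, 8 of 19 rising and 8 falling (4 rising with library totals). Their log2 fold changes ran from -2.68 to 0.84, with 1 member changing more than 3-fold. OAZ1, the polyamine feedback inhibitor antizyme, rose (0.84 ± 0.14), and the aspartate transaminase gene GOT1 was among those that fell (-0.89 ± 0.14). Of 6 CTDSP phosphatases 2 rose and 4 fell. PP1 and PP2A subunits rose in 8 of 20 cases and fell in 3 (3 and 6 with library totals). Zinc finger genes of chromosome 19 rose in 40 of 156 cases (25.6%) and fell in 27 (17.3%), and with library totals in 18 and 46. Over all genes 24.2% rose and 28% fell, so the share of rises in this list was near that of all genes.

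Some lists depended on single libraries or on the scaling. JAK-STAT3 genes rose in 11 of 22 cases and fell in 2, but with library totals 4 rose and 7 fell. The rises were 7 without control replicate 3 and 6 without siRNA A replicate 2, and among them SOCS2 rose by 1.03 ± 0.12 and IL6ST, the shared receptor subunit of the interleukin 6 family, by 1.03 ± 0.23. WNT and stem cell genes rose in 10 of 31 cases and fell in 10, with 5, 6 and 4 rising without control replicate 1, control replicate 2 and siRNA A replicate 2. With library totals 2 rose and 16 fell, with a median of -0.45. The tubulins rose in 3 of 13 cases and fell in 7, 4 without control replicate 3 and 4 after GC correction, while with library totals none rose and 8 fell, with TUBG1, the gamma tubulin of the centrosome, lower (-0.94 ± 0.10). Of 7 mismatch repair genes 4 fell and none rose, with 2 falling without control replicate 2 or control replicate 3.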
